A study of Mus musculus with 8 samples.

Results

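Oxidative phosphorylation (OXPHOS) in mouse ES cells was examined through the nuclear genes that encode it. All autosomal protein-coding genes of the GENCODE M1 annotation (mouse genome build mm9) were taken whose symbol starts with Nduf, Uqcr, Atp5, Cox4, Cox5, Cox6, Cox7 or Cox8, or is Sdha, Sdhb, Sdhc, Sdhd or Cyc1. This gave 90 genes of 21418. They carry 89 symbols, because Ndufb8 has 2 entries in the annotation. By role, 39 belong to complex I (its core and accessory subunits and 4 assembly factors), 4 to complex II, 9 to complex III, 19 to complex IV and 15 to complex V. The remaining 4 share a name with the complexes but lie outside them.

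OXPHOS takes place in the inner mitochondrial membrane. Complexes I and II pass electrons from NADH and succinate to coenzyme Q, complex III hands them to cytochrome c, and complex IV reduces oxygen. The proton gradient built on the way drives ATP synthesis by complex V. Most subunits are encoded in the nucleus, and their genes are known for housekeeping promoters with sites for NRF1, for the ETS factor GABP (also called NRF-2) and for YY1.

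DSB-seq maps DNA double-strand breaks (DSBs) by adding biotinylated nucleotides to broken ends in fixed nuclei, capturing the labeled fragments and sequencing them. It was carried out in Chd1 KO ES cells (Chd1Δ/Δ, an established line without the chromatin remodeler Chd1) and in control ES cells (Chd1fl/Δ, with a floxed and a deleted allele), with 2 replicates each. Cells of both genotypes were grown in serum and LIF, and the control thus also carries a deleted Chd1 allele. The replicates of a genotype were combined before peaks were called, so each genotype has 1 peak list and these lists give no replicate error. The reads of the single replicates were not analyzed here.

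The Chd1 KO list holds 5671 peaks and the control list 54. From the lowest background in each list, the combined libraries were estimated at 29800000 reads in Chd1 KO and 27600000 in control. A gene was counted when the summit of a peak, its position of most reads, lay within 1 kb of any annotated TSS of the gene. Expression is not part of these lists, so neither ES cell markers nor the loss of Chd1 could be checked in them.

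DSB peaks were found at a small number of OXPHOS promoters. In Chd1 KO, 6 of the 90 genes had a summit within 1 kb of a TSS, or 6.67% (Wilson 95% interval 3.09% to 13.8%, counting error only). Among all 21418 autosomal protein-coding genes, 3553 had one, or 16.6%. In the window of the study's methods, which takes 1 kb before the TSS but 100 bp after it, the share of all genes was 10.7%, which lies inside the interval of the OXPHOS genes, whose count was again 6. Only this window was taken from the study, which assigned its peaks to genes with the program HOMER. That assignment was not repeated, and a summit still counted for every gene with a TSS in the window. The genes with a summit were Atp5g3, Atp5h, Atp5j, Cox4i1, Cox4nb and Uqcrh. At a fold enrichment of at least 4 the count was 3 (3.33%), beside 13.3% of all genes. Among genes with 1 TSS over their protein-coding transcripts it was 2 of 55 (3.64%), beside 11.3%. These 2 were Cox4i1 and Cox4nb, which share 1 peak. A window of 10 kb, chosen after seeing the data, gave 10 (11.1%), beside 21.4%. In control, 0 of the 90 genes had a summit (interval 0% to 4.09%), as did 0 of the 21418 genes, a share of 0%. The control list thus held no summit at the promoter of any autosomal protein-coding gene, OXPHOS or other. Of the 90 genes, the nearest to a control summit was Atp5s, which lies outside the complexes, at 70.7 kb. Within the complexes the nearest was Ndufa7, at 953 kb.

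Complex V, the ATP synthase, had 3 of 15 genes with a Chd1 KO summit, or 20% (interval 7.05% to 45.2%), near the 16.6% of all genes. These were Atp5h (now Atp5pd) and Atp5j (now Atp5pf), which encode subunits of the peripheral stalk, and Atp5g3 (now Atp5mc3), an isoform gene of subunit c, which forms the rotating ring. Complex III had 1 of 9, Uqcrh, which encodes the hinge protein that helps the complex bind cytochrome c. Complex IV had 1 of 19, Cox4i1, the widely expressed isoform of subunit 4. Of the 4 genes outside the complexes, Cox4nb had a summit. It is now named Emc8 and encodes a subunit of a membrane protein complex of the endoplasmic reticulum. Its old name reflects that it is the neighbor of Cox4i1. Complexes I and II had none.

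**Figure D1:**
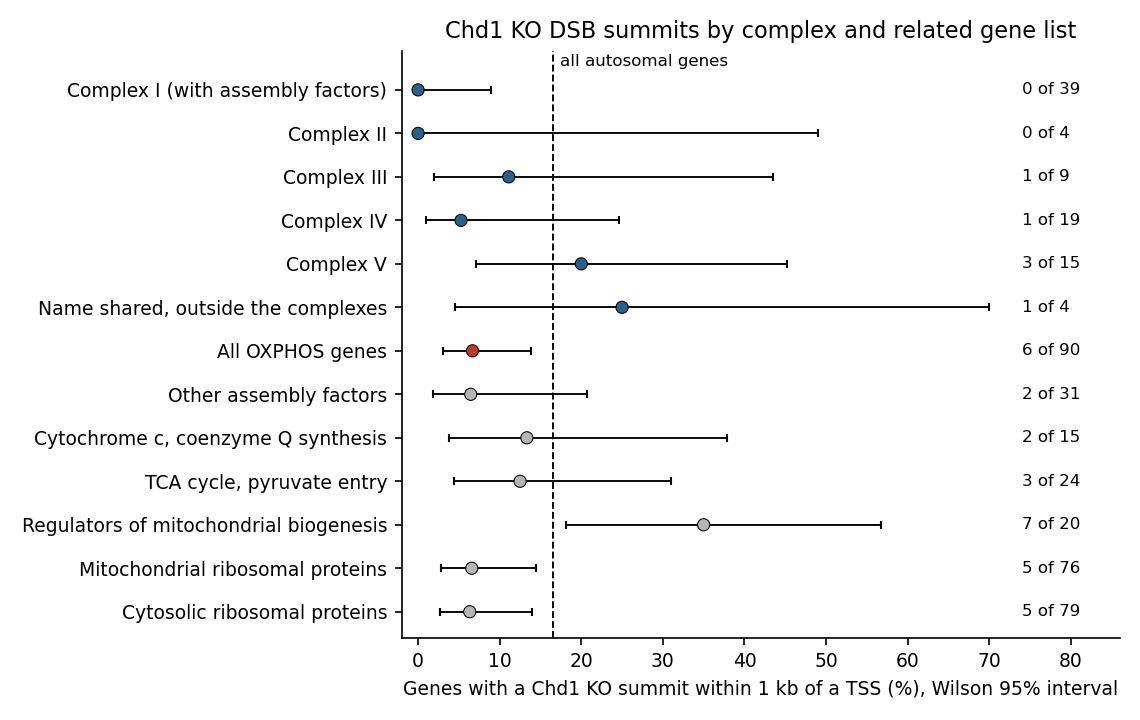
Share of genes with a Chd1 KO DSB summit within 1 kb of a TSS (x axis, %) by complex and in related gene lists (y axis), with Wilson 95% intervals as bars and gene counts at the right. The dashed line marks all autosomal protein-coding genes at 16.6%, and the 90 OXPHOS genes together stand at 6.67%.

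The 6 genes shared 5 peaks, and 4 of these 5 peaks (80%) also lay within 1 kb of the TSS of another protein-coding gene. Of all 3576 Chd1 KO peaks at TSSs of autosomal protein-coding genes, 288 (8.05%) lay near TSSs of 2 or more of these genes. Parts of the peaks of Atp5h, Atp5j, Uqcrh and Atp5g3 outside annotated exons are shown, so that the base composition at these breaks can be seen. The GC content of the 5 peaks was 72.2% to 81.1%, and it was not set beside that of the other promoter peaks. Each part shown is read 5′ to 3′ on the strand of the gene named, with runs of G and C of at least 12 bp in capitals.

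The peak of complex IV lay in the promoter shared by Cox4i1 and Cox4nb, which are transcribed away from each other. It was 353 bp wide, with its summit 96 bp upstream of the Cox4i1 TSS and 82 bp upstream of the Cox4nb TSS. The summit also lay in an annotated intron of Gm20388. At the summit 26 extended reads stood against a background of 6.12, a fold enrichment of 3.79. This was the lowest fold of the 5 peaks, at the highest background, and 12.6% of the 3576 promoter peaks were weaker.

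At Atp5h the peak spanned chr11:115281324-115281714 (391 bp). Its summit lay 188 bp upstream of the Atp5h TSS and at an annotated TSS of Kctd2, in the transcribed 5′ end of that gene, which runs the other way and encodes a BTB domain protein. The fold enrichment was 4.64, with 22 reads against a background of 3.96. The peak has a GC content of 81.1%, the highest of the 5. Its longest run of G and C, at chr11:115281444-115281467 on the - strand, is 24 bp long and spans the summit, and it lies in an annotated exon of Kctd2. The stretch next to it, chr11:115281324-115281439, lies between the genes.
Atp5h run: GCCCGCGCGCCGCCGGGCCGGCCG
Atp5h: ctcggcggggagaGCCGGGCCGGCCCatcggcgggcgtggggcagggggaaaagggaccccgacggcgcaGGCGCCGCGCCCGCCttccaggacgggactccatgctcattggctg
By distance the summit was thus nearer to Kctd2 (0 bp) than to Atp5h.

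Atp5j shares its 5′ end with Gabpa, the gene of the DNA-binding subunit of GABP, and the transcribed regions of the pair overlap. The peak at chr16:84835840-84836170 (331 bp) had its summit 228 bp upstream of the Atp5j TSS, in an intron of Gabpa 729 bp downstream of a TSS of that gene. Its fold enrichment of 3.90 rested on 16 reads against a background of 3.36, the fewest reads of the 5 peaks. The intronic stretch is chr16:84835958-84836170 on the - strand.
Atp5j: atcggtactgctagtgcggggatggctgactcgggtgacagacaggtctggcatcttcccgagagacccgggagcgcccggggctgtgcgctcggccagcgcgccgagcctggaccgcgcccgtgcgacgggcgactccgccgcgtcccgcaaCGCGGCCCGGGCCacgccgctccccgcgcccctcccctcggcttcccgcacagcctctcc
Its longest run is 13 bp, and a run of 17 bp lies at the Atp5j TSS itself.

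At Uqcrh the peak had the highest fold enrichment among the 5, 5.44, with 26 reads against a background of 3.96, and 85.3% of the promoter peaks were weaker. It was also the farthest from the OXPHOS gene. The peak at chr4:115748252-115748739 (488 bp) had its summit 822 bp upstream of the Uqcrh TSS, but 348 bp downstream of a TSS of the opposite-strand gene Lrrc41, in an intron of Lrrc41. The stretch around the summit is chr4:115748358-115748638 on the - strand, and a run of 20 bp at the edge of the peak, partly outside it, is not shown.
Uqcrh: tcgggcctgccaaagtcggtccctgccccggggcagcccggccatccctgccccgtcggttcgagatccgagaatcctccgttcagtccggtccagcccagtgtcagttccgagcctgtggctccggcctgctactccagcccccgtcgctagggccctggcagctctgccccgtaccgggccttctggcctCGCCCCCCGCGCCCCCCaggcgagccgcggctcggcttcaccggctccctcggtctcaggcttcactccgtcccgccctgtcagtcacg

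Atp5g3 was the exception, with no TSS of another protein-coding gene within 1 kb of the summit. The peak at chr2:73749047-73749319 (273 bp) had its summit in an intron of Atp5g3, 224 bp downstream of its outermost TSS, with 20 reads against a background of 3.18 and a fold enrichment of 5.02. The intronic stretch under it, chr2:73749118-73749298 on the - strand, holds a run of 25 bp close to its 5′ end.
Atp5g3: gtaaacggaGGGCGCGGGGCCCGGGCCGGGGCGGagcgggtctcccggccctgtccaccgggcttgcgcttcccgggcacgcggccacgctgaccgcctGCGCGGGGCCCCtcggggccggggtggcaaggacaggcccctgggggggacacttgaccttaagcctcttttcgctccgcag

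None of the 5 peaks was overlapped by a control peak. Over all promoter peaks in Chd1 KO the median fold was 4.53, with quartiles of 4.05 and 5.07. The peaks of Atp5h and Atp5g3 lay between these quartiles, those of Cox4i1 with Cox4nb and of Atp5j below them, and that of Uqcrh above. The lists do not reach the same level of p, and the weakest control peak has a −log10 p-value of 7.13 and the weakest Chd1 KO peak one of 4.88. At the control's level of p, 4 of the 5 peaks remained, and the one lost was that of Atp5j and Gabpa, with a −log10 p-value of 6.97. The share of OXPHOS genes with a summit was then 5.56%, beside 14.8% of all genes.

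**Figure D2:**
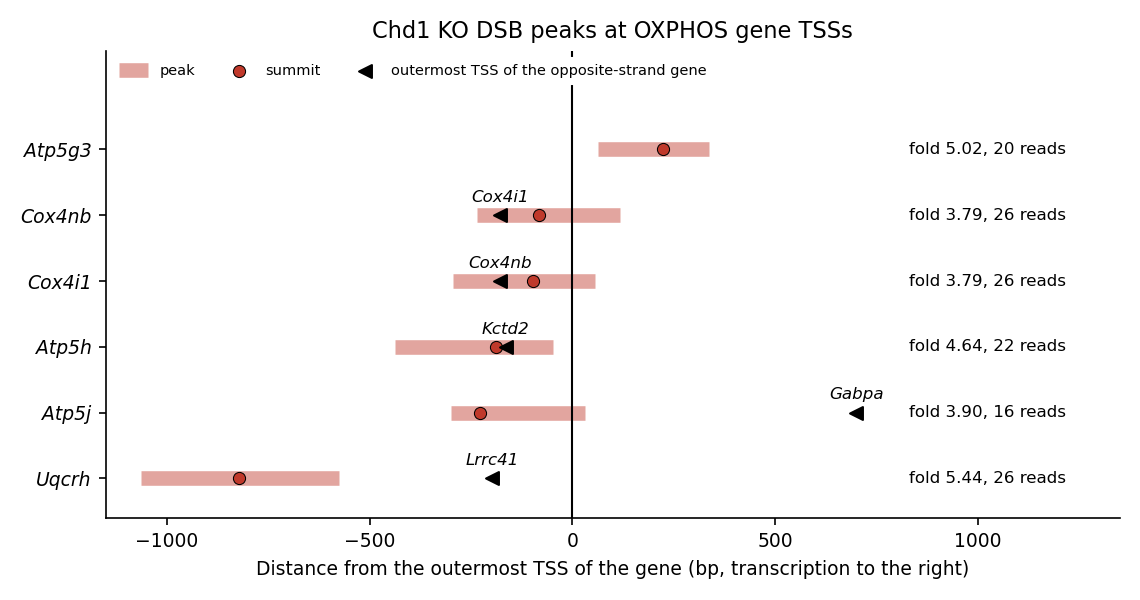
Chd1 KO DSB peaks at OXPHOS genes, drawn by distance in bp from the outermost TSS of each gene with transcription to the right. Bars are peaks, circles are summits, black triangles are the outermost TSS of the opposite-strand gene, and the text gives fold enrichment and reads at the summit. The Uqcrh summit lies 822 bp upstream and the Atp5g3 summit 224 bp downstream, and the Cox4i1 and Cox4nb rows show the same peak.

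OXPHOS promoters had a middling and narrow range of GC content. The median within 1 kb of the outermost TSS was 50.9% (quartiles 48.9% and 53.4%), beside 51.3% (45.9% and 56.1%) over all genes. From 45% to 55% GC stood 73 of the 90 OXPHOS genes (81.1%) and 47.7% of all genes. At 55% and over, which holds 2645 of the 3553 genes with a summit, stood 13 OXPHOS genes (14.4%) and 30.4% of all genes.

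Within GC classes, the OXPHOS genes with a summit were those of high GC. At 55% and over, 5 of 13 had a Chd1 KO summit (38.5%, interval 17.7% to 64.5%), beside 40.7% of all genes in that range. Under 55%, 1 of 77 had one (1.30%, interval 0.230% to 7.00%), beside 6.09% of all genes. The exception was Atp5g3, at 53.4%. These classes use the outermost TSS. With GC as the mean over all TSSs of a gene, 3 of 10 OXPHOS genes at 55% and over had a summit (30%, interval 10.8% to 60.3%), and 3 of 80 under it (3.75%), because Atp5h (51.7%) and Uqcrh (52.5%) then fell under 55%. The shares of all genes were 38.5% and 9.68%. The 6 genes had a median GC of 59.2%, and the other 84 one of 50.7%. Over all genes these medians were 58.6% with a summit and 49.9% without.

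**Figure D3:**
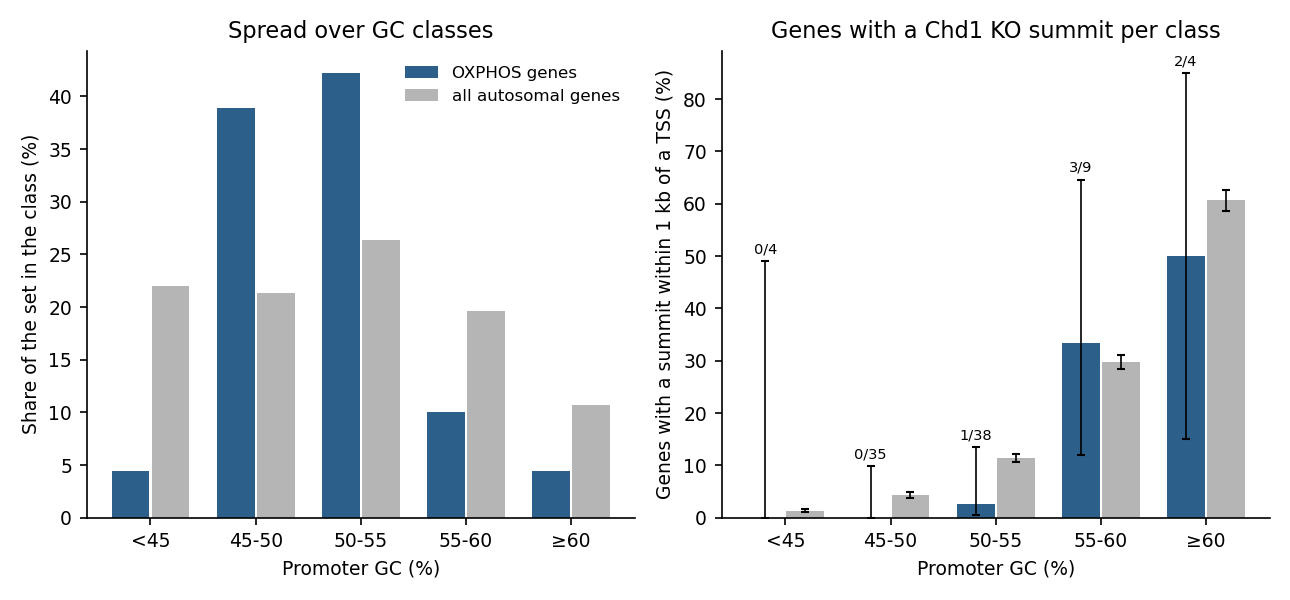
Left, share of each gene set (y axis, %) in 5 classes of promoter GC (x axis, %). Right, share of the genes in each class with a Chd1 KO summit within 1 kb of a TSS (y axis, %), with Wilson 95% intervals and counts for the OXPHOS genes. OXPHOS genes crowd into the classes from 45% to 55%, where 1 of 73 had a summit (1.37%), beside 8.27% of all genes.

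OXPHOS genes were also short. Their median length, as the mean of the protein-coding transcripts, was 7.33 kb, beside 13.3 kb over all genes, and 79 of the 90 (87.8%) were under 20 kb, beside 60.7% of all genes. All 6 genes with a summit were among these 79, a share of 7.59% beside 9.33% of all genes under 20 kb. Of the 11 OXPHOS genes of 20 kb and over, 0 had a summit (interval 0% to 25.9%), beside 27.8% of all genes of that length. Over all genes, those with a summit were the longer ones, with a median of 33.1 kb against 10.9 kb without. The OXPHOS genes had no such order, with 6.58 kb for the 6 and 7.43 kb for the other 84.

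Where GC was 55% and over and length under 20 kb, 5 of 12 OXPHOS genes had a summit (41.7%, interval 19.3% to 68.0%), beside 28.5% of all genes in that class, which lies inside the interval.

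Class by class, the share of all genes gives a count to set beside the 6. With the share of all genes in its GC class given to each OXPHOS gene, the sum was 11.0 genes. With classes of length it was 10.5, and with classes of GC and length together 8.00. Without classes it was 14.9. Of these sums, the one with classes of GC and length together was nearest to the 6 found. Neither the differences from 6 nor a role of GC or length in them was tested.

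**Figure D4:**
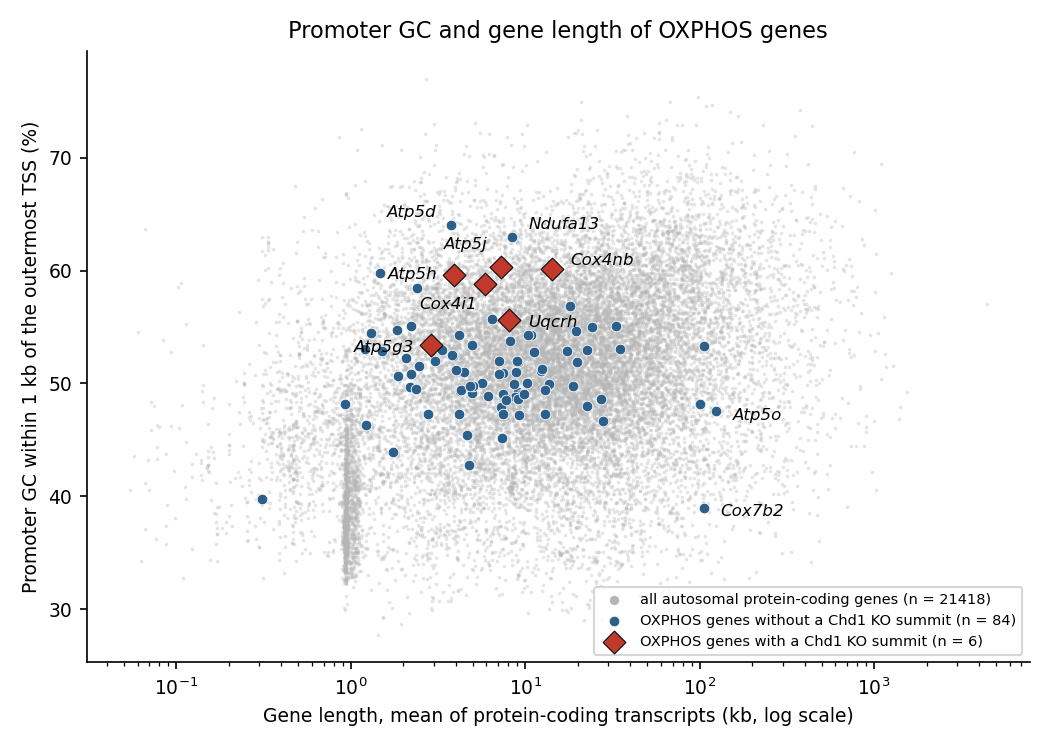
Promoter GC (y axis, %) against gene length (x axis, kb, log scale) for all 21418 autosomal protein-coding genes (gray), the 84 OXPHOS genes without a Chd1 KO summit (blue circles) and the 6 with one (red diamonds). The 6 lie between 53.4% and 60.3% GC and under 20 kb in length.

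High promoter GC was also found at OXPHOS genes without a summit. The highest promoter GC of any OXPHOS gene, 64.0%, was that of Atp5d, the delta subunit of complex V, whose nearest Chd1 KO summit was 8.04 kb away. Atp5d owes this value to its outermost TSS, and at the TSSs of its protein-coding transcripts the mean was 54.7%. Of the genes without a summit, Ndufa13, a complex I subunit also known as the cell death regulator GRIM-19, followed at 63.0% (nearest summit 71.7 kb away). Next among them came the complex I assembly factor Ndufaf3 at 59.8%, the heme subunit Cyc1 of complex III at 58.5% and the iron-sulfur subunit Sdhb of complex II at 56.9%. Their nearest summits were 30.5, 114 and 99.0 kb away.

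Long genes were among those without a summit as well. The longest, Atp5o, which encodes the stalk subunit OSCP of complex V, had a mean transcript length of 124.5 kb, which rests on an annotated transcript of 242.6 kb. The complex I assembly factor Ndufaf2 was 106.0 kb long, Cox7b2 (a testis isoform of complex IV) 105.4 kb, and the complex I subunits Ndufs4 and Ndufa10 were 100.3 and 34.9 kb. Cox7b2 also had the lowest promoter GC, 39.0%. The shortest was Atp5l-ps1, at 0.312 kb, named as a pseudogene though annotated as protein-coding.

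Complex I, the largest group, had 0 of 39 genes with a summit (interval 0% to 8.97%), beside 16.6% of all genes. None of its 7 core subunit genes, 28 entries for accessory subunits (Ndufb8 stands for 2 of them) and 4 assembly factors was counted. The promoters of complex I had a median GC of 49.9% and the genes a median length of 8.65 kb. Over all genes, 4.36% had a summit at 45% to 50% GC, 11.4% at 50% to 55%, and 12.3% at lengths of 5 to 20 kb. Of complex IV, the 8 isoforms of restricted expression (in muscle, lung or testis, for example) had none, and 1 of the 10 other subunits did.

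Complex II oxidizes succinate and is also an enzyme of the TCA cycle. It had 0 of 4 genes with a summit (interval 0% to 49.0%), and so few genes cannot be told apart from the 16.6% of all genes. Sdha, the flavoprotein, had a promoter GC of 46.7%, and the membrane anchors Sdhc and Sdhd had 49.7% and 50.9%. The nearest Chd1 KO summits lay 720 kb from Sdha, 179 kb from Sdhc and 172 kb from Sdhd. Sdha and Sdhd, like Cox4i1, start head to head with another gene, and the short stretches between the TSSs are shown as head-to-head promoters without a peak, each on the - strand. The partners are Ccdc127 for Sdha (chr13:74487729-74487756) and Timm8b, of mitochondrial protein import, for Sdhd (chr9:50411955-50412005).
Sdha: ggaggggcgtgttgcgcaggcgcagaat
Sdhd: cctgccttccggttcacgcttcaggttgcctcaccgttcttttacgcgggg
The stretches at Sdha and Sdhd are 28 and 51 bp long, with 67.9% and 60.8% GC, and hold no run of G and C of at least 12 bp. They are shorter than the stretches shown under the peaks, and within 1 kb of its TSS Sdha had a run of 15 bp. The NRF1 core lies in that of Sdha and the ETS core in that of Sdhd.

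Head-to-head promoters were common among OXPHOS genes. In 22 of the 90 (24.4%), a protein-coding gene on the opposite strand started within 1 kb upstream, beside 7.29% of all genes. Of the 22, 4 had a Chd1 KO summit (18.2%), namely Atp5h, Cox4i1, Cox4nb and Uqcrh, and of the other 68, 2 did (2.94%). Cox4i1 and Cox4nb are each other's neighbor, and both were counted for 1 shared peak. Over all genes the shares were 19.1% with such a neighbor and 16.4% without. Counting neighbors on either side of the TSS, which brings in Gabpa at Atp5j, 5 of 28 OXPHOS genes had a summit (17.9%), and 1 of the other 62 (1.61%). The shares over all genes were 20.8% and 16.1%, so the OXPHOS genes with a neighbor stood near all genes with one.

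Runs of G and C of at least 12 bp lay within 1 kb of the outermost TSS of 54 OXPHOS genes (60%), beside 53.8% of all genes. Runs of at least 20 bp were found at 13 (14.4%), beside 16.6%. All 6 genes with a summit were among these 13, a share of 46.2%, and 0 of the other 77 had a summit. Over all genes, 57.9% of those with a run of at least 20 bp had a summit and 8.36% of the rest. The other 7 OXPHOS genes with such a run, named here after their values were seen, were Atp5a1, Atp5d, Ndufa13, Ndufa4, Ndufaf2, Ndufs4 and Ndufv2. The longest run among these 7 was 26 bp, at Ndufv2, a core subunit of complex I, and the runs at the 6 genes with a summit were 20 to 32 bp long. These runs did not all lie under a peak. At Atp5j the run within 1 kb was 22 bp long, and the longest under the peak was 17 bp.

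Motifs of the regulators were counted from 250 bp upstream to 50 bp downstream of the outermost TSS, on both strands. The NRF1 core CGCANGCG was found at 26 OXPHOS genes (28.9%), beside 10.5% of all promoters of the same length. The ETS core CCGGAAG was found at 17 (18.9%), beside 10.9%, and the YY1 core AAGATGGCG at 6 (6.67%), beside 1.84%. All 3 motifs were thus more frequent at OXPHOS promoters than over all promoters, and a match does not show that the factor binds. A Chd1 KO summit was found at 2 of the 26 genes with the NRF1 core, 4 of the 17 with the ETS core and 1 of the 6 with the YY1 core, and at 4 of the 64, 2 of the 73 and 5 of the 84 without them. Of all genes without these cores, 15.1%, 16.4% and 16.5% had one. For the NRF1 core the OXPHOS share was 7.69%, beside 29.1% of all genes with it. For the ETS core it was 23.5% beside 17.9%, and for the YY1 core 16.7% beside 21.8%. Of the 4 genes with the ETS core and a summit, Cox4i1 and Cox4nb share 1 promoter and 1 peak. The promoter of Atp5h held all 3 cores.

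**Figure D5:**
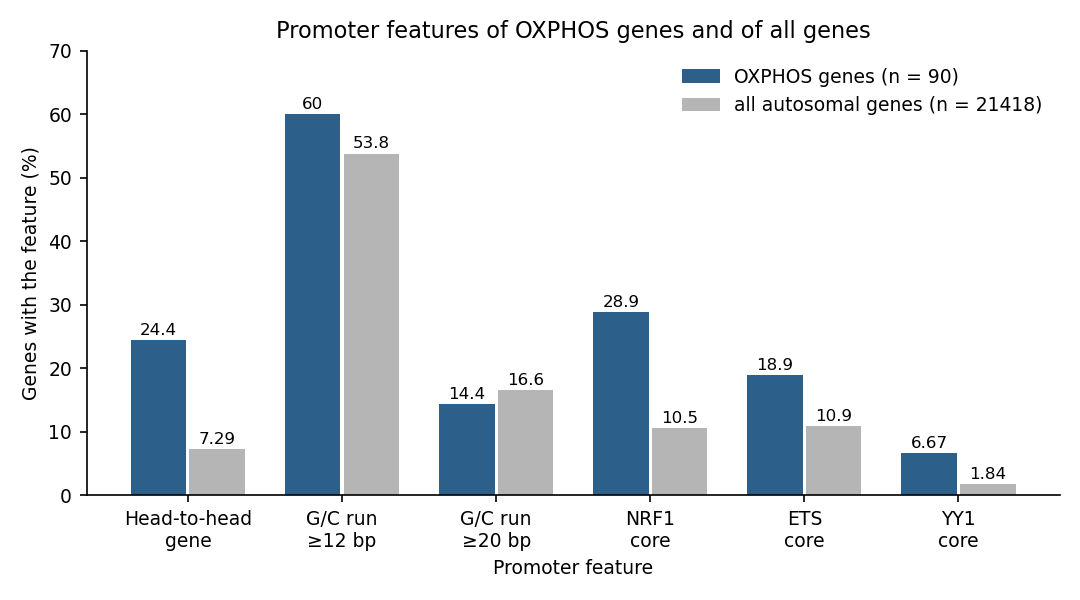
Share of genes (y axis, %) with each promoter feature (x axis) among the 90 OXPHOS genes (blue) and all 21418 autosomal protein-coding genes (gray). Head-to-head genes stood at 24.4% and 7.29%, and runs of G and C of at least 20 bp at 14.4% and 16.6%.

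Distances to the nearest DSB peak were also taken for the 84 OXPHOS genes without a summit. Their median distance from a TSS to the nearest Chd1 KO summit was 77.9 kb (quartiles 26.8 and 159 kb), beside 115 kb (42.8 and 319 kb) over all 17865 genes without a summit. Within 2 kb lay 0 of the 84, beside 0.907% of all such genes, and within 10 kb 4 (4.76%), beside 5.74%. The 4, named after their values were seen, were Atp5b (3.80 kb), the catalytic beta subunit of complex V, the muscle isoform Cox7a1 of complex IV (6.91 kb), the accessory subunit Ndufc1 of complex I (7.46 kb) and Atp5d.

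Genes that serve OXPHOS from outside the complexes were set beside the 16.6% of all genes. Among assembly factors not covered by the symbols, 2 of 31 had a Chd1 KO summit (6.45%). These were Ttc19, a factor of complex III, with a fold enrichment of 7.34, and Cox15, of heme A synthesis, with 4.17. Of the genes for cytochrome c and coenzyme Q synthesis, 2 of 15 had one (13.3%), Coq2 at 5.02 and Coq9 at 4.17. Of the TCA cycle and pyruvate entry, 3 of 24 had one (12.5%). They were the pyruvate dehydrogenase phosphatase Pdp1 at 6.01, the succinyl-CoA ligase subunit Sucla2 at 4.46 and the pyruvate carrier subunit Brp44 (now Mpc2) at 4.43.

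Regulators of mitochondrial biogenesis had the highest share of these lists, 7 of 20, or 35% (interval 18.1% to 56.7%), beside 16.6% of all genes. Their median promoter GC was 53.1% (quartiles 49.6% and 60.3%), beside 51.3% (45.9% and 56.1%) over all genes. Their median length was 15.9 kb. The highest folds were those of Gabpb1 (4.82), Nrf1 (4.50), Pprc1 (4.36), Esrra (3.98) and Gabpa (3.90). Promoter GC was 51.8% at Gabpb1, but 64.1%, 61.6%, 60.4% and 60.3% at Nrf1, Pprc1, Esrra and Gabpa. Of all genes at 60% GC and over, 60.7% had a summit, and a role of GC in this list was not tested. The summits of Gabpb1, Nrf1, Esrra and Gabpa lay 449, 396, 295 and 729 bp downstream of the nearest TSS. The share of this list in the window of the study's methods, to 100 bp downstream, was not counted. The peak of Gabpa is the one counted for Atp5j. So the genes of the alpha subunit and of a beta subunit of GABP, and the gene of NRF1, whose motifs were counted above, had a summit. Yy1, the gene of the factor behind the other motif and named after its values were seen, had one too. Ribosomal proteins, other large sets of housekeeping genes, stood near the OXPHOS genes. Mitochondrial ribosomal proteins had 5 of 76 (6.58%, median GC 50.1%, median length 6.88 kb) and cytosolic ribosomal proteins 5 of 79 (6.33%, 52.7% and 2.90 kb).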

How the data were processed

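DSB-seq peaks of Chd1 KO and control ES cells were taken from the deposited lists. According to the submitters' processing notes and the study's methods, reads were mapped to mm9 with Bowtie2, replicates were combined, MACS2 called peaks from reads extended to 200 bp (q-value up to 0.05), and peaks in blacklisted regions were dropped. The fold enrichment is a ratio given by the authors, of reads over local background within that library, without scaling between genotypes. Each peak's −log10 p-value, and its −log10 q-value within the list, are deposited values too. Summit reads and background were recovered from the fold, read as reads plus 1 over background plus 1, and the Poisson p-value, and this was tested on simulated data. Weak sites do not enter such lists, and the fewest reads at a Chd1 KO summit were 13. Chd1 and RNA Pol II ChIP-seq were not used here.

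TSSs and lengths came from GENCODE M1. Promoter GC was read within 1 kb of the outermost TSS. No test was made, and intervals are Wilson 95%. Named genes were those with a summit, the 5 highest in GC and the 5 longest without one, the lowest in GC, the shortest, Sdha to Sdhd, Cyc1, and up to 5 genes by fold in each related list. Genes and lists were chosen with earlier results of these data known. Alternatives changed cutoffs, windows, peak position, TSSs, chromosomes, members and the definitions of GC and length. Python 3.11.15, NumPy 2.4.6, SciPy 1.17.1, pandas 2.3.3, pysam 0.24.0 and Matplotlib 3.10.9 were used.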

Additional observations from a re-analysis of the deposited data

How the results depend on the processing

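No paired analysis of the peak lists was possible because the replicates of each genotype were combined before peak calling, which left 1 list per genotype. For the same reason no replicate could be left out. The count of 6 OXPHOS genes with a Chd1 KO summit stayed between 5 and 6 under 13 of 16 alternatives. It was 3 with a fold enrichment of at least 4 (3.33%, beside 13.3% of all genes), which drops Atp5j, Cox4i1 and Cox4nb. It was 2 of 55 (3.64%, beside 11.3%) when only genes with 1 TSS over their protein-coding transcripts were used. These 2 were Cox4i1 and Cox4nb, which share 1 peak. A window of 10 kb, chosen after seeing the data, gave 10, and 4579 over all genes. The count over all genes stayed between 2846 and 4579 under 12 of 14 alternatives. It was 2296 from 1 kb upstream to 100 bp downstream of the TSS, where the OXPHOS count remained 6, and 1295 of 11411 with 1 TSS over the protein-coding transcripts. Under all 15 settings run for both, the share was lower among OXPHOS genes than over all genes, and the gap was narrowest in the window to 100 bp downstream (6.67% and 10.7%). The control count was 0 under all 3 alternatives, which include a window of 10 kb. The median GC of 50.9% was 56.3% within 500 bp and 48.2% from 1 kb upstream to the TSS, and between 49.8% and 51.3% under the other 4 alternatives. The median length of 7.33 kb lay between 7.12 and 7.50 kb under 5 alternatives. Leaving out Atp5l-ps1 and counting Ndufb8 once was chosen after seeing the data, and left 6 of 88 genes. With 16 to 26 reads at the summits of these genes and no summit under 13 reads listed, weaker breaks cannot be seen at this depth.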

Other observations

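On the X chromosome, 3 further genes carry the same kinds of symbols. Ndufa1 and Ndufb11, accessory subunits of complex I, had a promoter GC of 54.6% and 53.7%, and Cox7b of complex IV had 41.5%. None had a Chd1 KO or control summit within 1 kb of a TSS, and the nearest Chd1 KO summits were 22081 kb, 7545 kb and 2399 kb away. Over the whole X chromosome, 7 of 932 protein-coding genes had a Chd1 KO summit (0.751%, interval 0.364% to 1.54%), beside 16.6% of the autosomal genes. The copy number of the X chromosome in these lines was not examined, and weak sites do not enter the lists. The mitochondrial genome, which encodes the other subunits of complexes I, III, IV and V, held 0 peaks in both lists. Whether peaks or reads there were removed before deposition was not examined.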
